A study of Homo sapiens with 15 samples.

Results

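A set of 9 genes of catecholamine handling was followed through an induction of MSX1 in IMR32 cells, an established human neuroblastoma line. They are TH, DDC, DBH and GCH1 (synthesis), SLC6A2, SLC18A1 and SLC18A2 (transport), MAOA (breakdown) and ADRA2A (autoreceptor). They were found on the array as the probe sets whose single gene symbol in the platform annotation is 1 of these 9 names, which gave 21 probe sets of 9 genes out of 41091 probe sets of 19775 genes. The rule that finds them uses gene names, and the set itself was chosen with earlier results of these data known.

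Catecholamines are made from tyrosine in a chain of enzymes. Tyrosine hydroxylase, the rate-limiting step, needs the cofactor tetrahydrobiopterin, whose synthesis starts with GTP cyclohydrolase 1, the product of GCH1. Aromatic L-amino acid decarboxylase (DDC) then makes dopamine, which vesicular monoamine transporters carry into granules, where dopamine beta-hydroxylase (DBH) turns it into noradrenaline. Released noradrenaline is taken back up by the noradrenaline transporter SLC6A2, oxidised by monoamine oxidase A, and sensed by the alpha-2A adrenergic receptor, which couples to inhibitory G proteins and restrains further release. Neuroblastoma arises from sympathoadrenal cells, in which this pathway is part of the mature state.

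All cells carried an MSX1 gene that doxycycline in the medium switches on, the cells at t0 and the controls included. MSX1 encodes a homeodomain transcription factor. The 15 arrays form 5 groups of 3. A first group was taken at t = 0 (t0), induced cells were taken at t = 8 (t8), t = 24 (t24) and t = 48 (t48), and a control was kept without doxycycline until t48. The labels give no unit of time and do not say whether the line is 1 clone. Nor do they say whether replicates were separate cultures, and the p-values then reflect only the spread between these arrays, which may be technical. No control was grown to t8 or t24, so time in culture and induction cannot be told apart there, and cells lacking the construct but given doxycycline were not among the arrays.

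The 250 bases before the start sites of DDC, ADRA2A and DBH are shown because MSX1 is a homeodomain factor, and because these were the genes whose signals lay furthest apart between induced and control cells at t48. Sequences are from RefSeq on GRCh38.p14, printed 5′ to 3′ on the strand of the gene. The table held entries for 5 of the 9 genes, with 2 start sites for DDC. Capitals mark the homeodomain core TAAT and its reverse complement ATTA, and in the DBH window also the hexamer CAATTA, the reverse complement of TAATTG, which overlaps 1 of the cores. The DDC windows lie at chr7:50565406-50565655 (start 1) and chr7:50561072-50561321 (start 2), both on the minus strand, the ADRA2A window at chr10:111076779-111077028 on the plus strand, and the DBH window at chr9:133636113-133636362 on the plus strand.
DDC start 1: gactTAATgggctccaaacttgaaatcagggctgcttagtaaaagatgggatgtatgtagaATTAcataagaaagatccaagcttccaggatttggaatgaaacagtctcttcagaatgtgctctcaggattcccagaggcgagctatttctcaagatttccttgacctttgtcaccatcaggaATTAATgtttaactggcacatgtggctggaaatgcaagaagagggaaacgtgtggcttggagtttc
DDC start 2: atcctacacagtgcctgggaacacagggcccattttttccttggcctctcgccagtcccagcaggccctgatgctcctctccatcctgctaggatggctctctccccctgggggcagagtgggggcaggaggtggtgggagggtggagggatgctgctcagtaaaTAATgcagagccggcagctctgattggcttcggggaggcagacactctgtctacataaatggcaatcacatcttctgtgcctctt
ADRA2A: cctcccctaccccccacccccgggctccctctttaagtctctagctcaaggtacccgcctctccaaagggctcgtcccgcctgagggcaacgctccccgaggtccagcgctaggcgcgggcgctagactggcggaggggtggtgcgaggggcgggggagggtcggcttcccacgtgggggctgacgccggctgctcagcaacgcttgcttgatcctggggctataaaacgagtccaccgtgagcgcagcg
DBH: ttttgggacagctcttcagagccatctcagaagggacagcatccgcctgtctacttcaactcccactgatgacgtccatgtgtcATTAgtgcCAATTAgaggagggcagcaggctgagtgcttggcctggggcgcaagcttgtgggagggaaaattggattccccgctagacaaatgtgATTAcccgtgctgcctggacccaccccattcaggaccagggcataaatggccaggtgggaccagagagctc

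Both strands were searched. The window of DDC start 1 held 4 cores, 2 of them overlapping, that of DDC start 2 held 1, and that of DBH held 3 cores and 1 hexamer. The window of MAOA, a gene that passed in no comparison, held 1 core, and those of ADRA2A and SLC18A2 held neither core nor hexamer. Across 35116 windows of the same length, 47.4% held the core and 6.7% the hexamer, so a core in this window is common. The cyclic AMP response element TGACGTCA, found in 1.65% of windows, was present in the SLC18A2 window, and its shorter form TGACG or CGTCA, found in 21.2%, in those of DBH, ADRA2A and SLC18A2. A match describes letters only, and binding was not measured.

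Signals are deposited MAS5 intensities on a linear scale, with each array scaled to the same trimmed mean. The signal of a probe set depends on its probes, so levels are compared between arrays and not between genes. The spiked hybridisation control bioC was weak on replicate 1 of induced t24 (101) and replicate 3 of induced t48 (116), called the weak-control arrays below, and read 404 to 483 on the other 13. At t48 the 18S control ran from 114 to 183 on induced arrays and from 73.2 to 94.3 on control arrays, without overlap. The ACTB 3′ to 5′ ratio ran from 1.27 to 1.52 on the former and from 1.22 to 1.31 on the latter. Whether these had a part in the differences at t48 was not tested. The highest 18S control was that of t0 replicate 3, at 590, against 85.9 and 171 on the other t0 arrays. Its part in the comparisons with t0 was not tested, and leaving out that array was among the alternatives below. All 5 matched genes of a list of 6 adrenergic neuroblastoma markers passed the filter on low signals, as did all 4 fibroblast markers (DCN, LUM, THY1 and PDGFRB). Every matched Schwann cell (2) and epithelial (4) marker, 3 of 4 blood and endothelial markers and 3 of 4 adrenal cortex markers did not. At t48 the summed adrenergic neuroblastoma markers ran from 11716 to 13288.5 on induced arrays and from 10957.5 to 11577.5 on control arrays, without overlap. Of these 5 genes, 2 passed there, both higher (limma, adjusted p at most 0.05), beside 8.55% of all genes. Their median difference was -0.02, beside -0.01 over all genes. The summed fibroblast markers ran from 176.4 to 216.5 on induced arrays at t48 and from 133.1 to 169.7 on control arrays, without overlap. LUM was the 1 of the 4 that passed there (2.53, limma, adjusted p = 9.62e-06). The median difference of the 4 fibroblast markers was -0.12, beside -0.01 over all genes. The part of either marker list in the differences at t48, those of DDC and ADRA2A among them, was not tested. In these RNA pools, a change in the share of cells expressing a gene cannot be told apart from a change in RNA per cell.

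MSX1 read 111 ± 13.6 (SD, n = 3) at t0, 161 ± 22.1, 165 ± 20.7 and 83.2 ± 14.7 in induced cells at t8, t24 and t48, and 50.7 ± 4.52 in control cells at t48. At t48 it was higher in induced than in control cells by 0.65 on the log2 scale (limma, adjusted p = 0.0165). That call held in 12 of 18 alternatives, and a dimmer MSX1 probe set pointed the other way. Against t0, MSX1 was lower in control cells at t48 (-1.05, adjusted p = 0.00501). Induced cells differed from t0 by 0.51 at t8 (adjusted p = 0.128) and -0.40 at t48 (adjusted p = 0.0777). At t24 they were higher by 0.55 (adjusted p = 0.0299), a call that held in 7 of 18 alternatives. Whether either probe set covers the introduced copy is not stated.

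Of the 9 genes, 7, with 15 of their 21 probe sets, had signals above the filter, which asked for the array median on at least 3 arrays. TH and SLC18A1 did not. Differences below are log2 fold changes of signal plus an offset of 5.16, with limma's Benjamini-Hochberg adjusted p over 12880 genes and a threshold of 0.05. The offset understates changes of dim probe sets. An F-test for any difference among the 5 groups called 5 of the 7 catecholamine genes, DDC, DBH, GCH1, SLC6A2 and ADRA2A, where 19.7% of all genes were called. Of 49 catecholamine differences (7 genes in 7 comparisons), 15 passed, and they belonged to 4 genes, DDC, GCH1, SLC6A2 and ADRA2A.

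**Figure D1:**
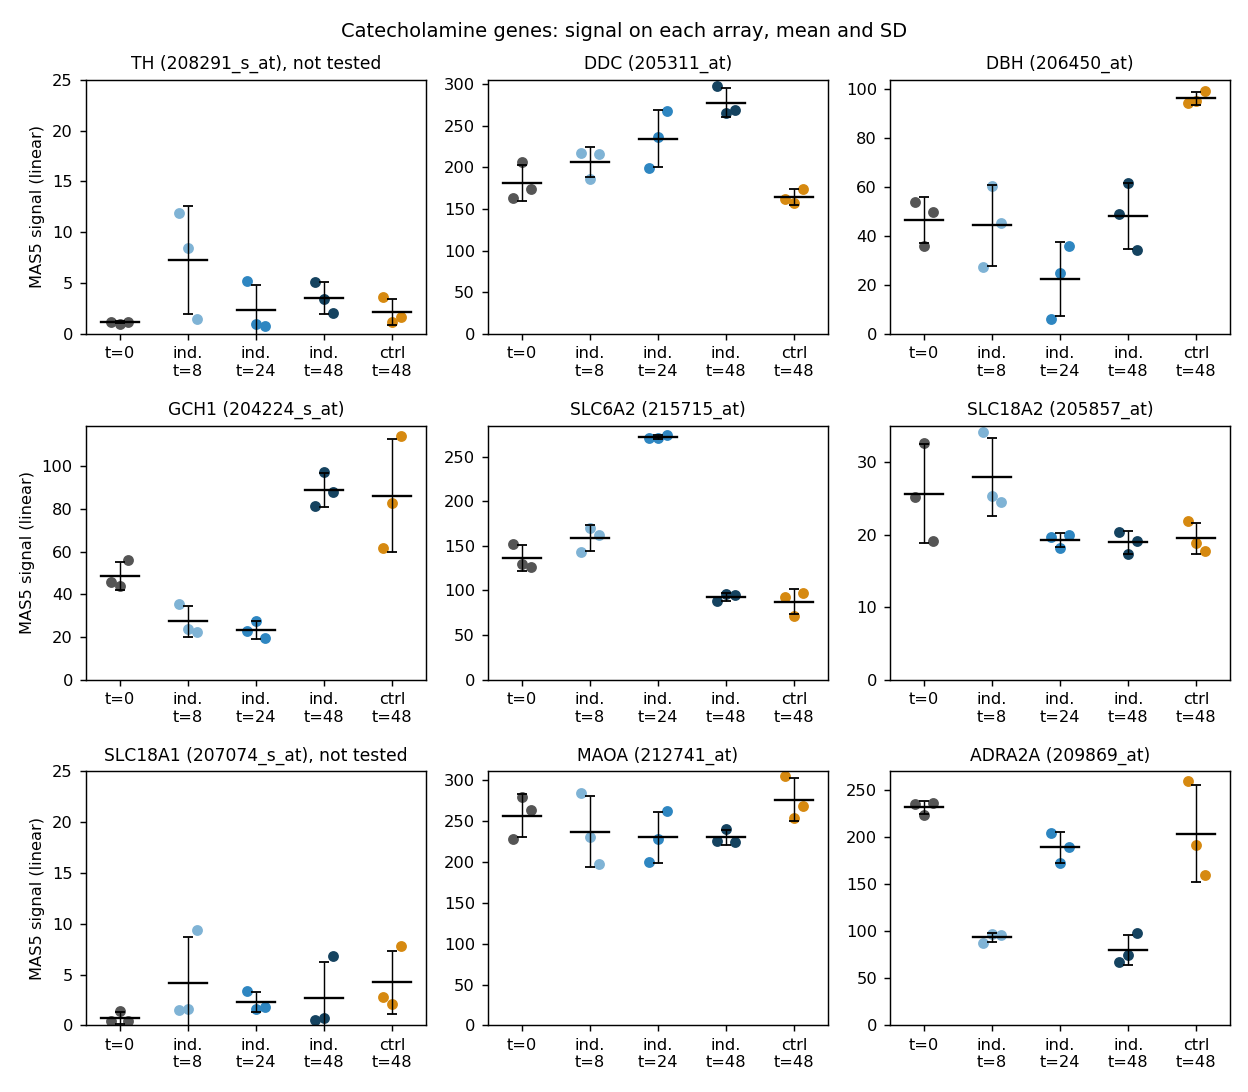
MAS5 signal (linear, y axis) of 1 probe set for each of the 9 catecholamine genes on every array, by group (x axis: t0, induced at t8, t24 and t48, control at t48). Points are arrays, bars the mean and SD of 3 arrays, cut at 0. SLC6A2 peaked in induced cells at t24 (271.1 to 274.9), ADRA2A was low in induced cells at t8 and t48, and DDC was highest in induced cells at t48, while TH and SLC18A1 stayed below every array's median.

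TH, the first enzyme of the chain, could not be measured above the filter. Its single probe set read between 0.8 and 11.9 on the 15 arrays, below the array median (18.1 to 22.6) on each. Its 3 highest readings were 11.9 and 8.4 in induced cells at t8 and 5.2 in induced cells at t24, and the other arrays of those groups read 1.5, 1.0 and 0.8. TH was therefore not tested, and a low signal does not show that its RNA was absent.

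DDC, which makes dopamine from L-DOPA, was higher in MSX1-induced than in control cells. Its brighter probe set read 163.6, 206 and 173.9 at t0. In induced cells it read 217.1, 186.2 and 216.5 at t8, 199.2, 236.4 and 267.4 at t24, and 298.2, 265.9 and 269.3 at t48. In control cells at t48 it read 161.7, 156.8 and 174.5. The induced arrays at t48 thus all lay above those of t0 and of the control, and the latter 2 groups overlapped. The difference between induced and control cells at t48 was 0.74 (SE 0.12, adjusted p = 0.00187), a rise of 1.67-fold. Against t0 it was 0.61 (SE 0.12, adjusted p = 0.00388). At t24 the difference from t0 was 0.36 (adjusted p = 0.0717), and it passed the threshold without replicate 1 of induced t24 (0.0312) and without t0 replicate 2 (0.0440).

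A second DDC probe set, dimmer, gave the same order of group means. It read 77.7, 58.4 and 65.3 in induced and 46.3, 37.6 and 34.8 in control cells at t48. In a fit over all 30676 kept probe sets its difference there was 0.69 (adjusted p = 0.0267), and against t0 it was 0.61 (adjusted p = 0.0293). Both DDC values at t48 passed in each of 18 alternative analyses, with the difference from the control between 0.69 and 0.78.

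DBH, the enzyme that turns dopamine into noradrenaline, differed among the groups by the F-test (adjusted p = 0.0258), while 0 of its 7 single differences passed limma's adjusted threshold and 5 had an unadjusted p under 0.05. Its 1 kept probe set read 53.9, 36 and 49.6 at t0, 27.5, 60.6 and 45.2 in induced cells at t8, and 6, 24.9 and 35.9 at t24. The DBH signals at t48 were 48.8, 61.5 and 34.2 in induced and 94.4, 95 and 99.2 in control cells. The control arrays at t48 stood above all other arrays, and induced cells at t24 were the lowest group, with replicate 1 (a weak-control array) at the bottom. Induced cells at t48 differed from the control by -0.96 (SE 0.40, 95% interval -1.82 to -0.10, adjusted p = 0.168). The control differed from t0 by 0.99 (adjusted p = 0.361), and induced cells at t24 from t0 by -1.09 (adjusted p = 0.104). The first of these passed when only the 2 groups were fitted (adjusted p = 0.0292), and the last without induced t24 replicate 3 (-1.48, adjusted p = 0.0385). A second DBH probe set read 0.7 to 2.3 and was not tested.

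GCH1, the first enzyme of tetrahydrobiopterin synthesis, fell in induced cells by t24 and was high at t48 with and without doxycycline. It read 45.7, 43.7 and 56.2 at t0, 35.5, 23.9 and 22.4 in induced cells at t8, and 22.6, 27.7 and 19.5 at t24. At t48 it read 81.6, 97.2 and 87.9 in induced and 61.9, 82.6 and 114.4 in control cells. Neither of the groups at t48 overlapped t0, and they overlapped each other.

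The GCH1 fall from t0 was 0.92 at t24 (log2 fold change -0.92, SE 0.20, adjusted p = 0.0123), and the difference at t8 was -0.74 (adjusted p = 0.105). From t24 to t48 GCH1 rose by 1.73 in induced cells (SE 0.20, adjusted p = 0.000286), or 3.32-fold. Induced cells at t48 were above t0 by 0.81 (adjusted p = 0.0162), and control cells differed from t0 by 0.74 (adjusted p = 0.148). Induced and control cells at t48 differed by 0.08 (95% interval -0.36 to 0.52, adjusted p = 0.849). The fall at t24 missed the threshold without t0 replicate 3 (adjusted p = 0.0509), and the rise over t0 missed it without t0 replicate 2 (0.0562) or induced t48 replicate 2 (0.0567). Without both weak-control arrays these values were 0.0532 and 0.0522. The rise from t24 to t48 passed in all 17 alternatives. GCH1 rests on 1 probe set, and its induced t24 readings (19.5 to 27.7) lay near the medians of those arrays (19.3 to 22).

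Among other genes of the cofactor, GCHFR rose. Of a list of 7 genes, 6 were measured (PTS, SPR, QDPR, PCBD1, GCHFR and CYB561). GCHFR alone passed limma's adjusted threshold in any of the 7 comparisons. Of the 35 values of the other 5, 9 had an unadjusted p under 0.05. Between induced and control cells at t48, 1 of the 6 thus passed, beside 8.55% of all genes. QDPR narrowly missed the threshold in induced cells at t48, with 0.30 against the control (adjusted p = 0.0529) and 0.27 against t0 (adjusted p = 0.0511). GCHFR encodes the feedback regulatory protein that binds GTP cyclohydrolase 1 and lets tetrahydrobiopterin inhibit it. It read 80.7, 87.3 and 97.4 at t0, 168.8, 122.7 and 127.7 in induced cells at t8, and 251.1, 386.1 and 342.4 at t24. Induced cells at t48 read 279.9, 246.3 and 221.6, and control cells read 130.7, 129.2 and 126. Every induced array lay above every t0 array, and the induced arrays at t48 lay above the control. The control arrays also all lay above t0, by 0.52 (limma, adjusted p = 0.192).

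GCHFR was higher than at t0 by 1.81 at t24 (SE 0.16, adjusted p = 1.39e-05) and by 1.44 at t48 (adjusted p = 6.98e-05). It was higher than the control at t48 by 0.92 (adjusted p = 0.00321), a comparison in which GCH1 differed by 0.08. All 4 GCHFR differences that passed, the step from t8 to t24 (1.19) among them, did so in each of 17 alternatives. The list's median at t48 against the control was 0.02, beside -0.01 over all genes.

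SLC6A2, the noradrenaline transporter of the plasma membrane, rose to a peak in induced cells at t24 and was below its starting level at t48 in both arms. The probe set used read 152.7, 130.1 and 126.6 at t0, 143, 170.6 and 162.6 in induced cells at t8, and 271.3, 271.1 and 274.9 at t24. By t48 the signals were 88, 95.9 and 94.4 in induced and 93.2, 71.5 and 97.5 in control cells. The t24 arrays stood far above all others and close together, and both groups at t48 lay below t0 and overlapped each other.

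SLC6A2 was higher at t24 than at t0 by 0.98 (SE 0.11, adjusted p = 0.000135), or 1.97-fold, and higher than at t8 by 0.76 (adjusted p = 0.00227). It then fell by 1.50 from t24 to t48 (log2 fold change -1.50, SE 0.11, adjusted p = 9.51e-06), a 2.84-fold fall. Against t0 it was lower at t48 in induced cells (-0.53, adjusted p = 0.00702) and in control cells (-0.62, adjusted p = 0.0251). Between the 2 groups at t48 the difference was 0.09 (95% interval -0.15 to 0.34, adjusted p = 0.667).

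The control value was the least stable of these SLC6A2 calls, passing in 8 of 22 alternatives. It missed the threshold without t0 replicate 1 (adjusted p = 0.0982), t0 replicate 2 (0.0675) or control replicate 2 (0.0834). Summed fibroblast markers moved in the same window, at 257 to 330 in induced cells at t24 against 113 to 157 at t0. LUM was the 1 of these 4 markers that passed (3.48, adjusted p = 7.80e-07), and their part in the SLC6A2 peak was not tested.

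SLC6A2 had 8 probe sets, of which 6 were kept. In the fit over probe sets, 4 of the 6 passed at t24 against t0, all higher, and 4 of the 6 at t48 against t24, all lower, beside 6.08% and 2.25% of all probe sets called in these comparisons. The second brightest read 149.9, 132.3 and 144.7 in induced cells at t24, against 51.8 to 63.6 at t0, and its fall from t24 to t48 was 2.13 (log2 fold change -2.13, adjusted p = 0.000125). A probe set that reached the array median on only 3 arrays had the opposite sign in both steps, -0.14 and 0.16, neither past the threshold (adjusted p = 0.842 and 0.914). For induced cells at t48 against t0, 3 of 6 passed, all lower (11.4% of all probe sets). None of the 6 passed between control cells and t0 (0.326% of all probe sets) or between the groups at t48 (5.13%), by limma's adjusted p, where the used probe set gave 0.0531 and 0.705, and 4 and 0 of them had an unadjusted p under 0.05.

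**Figure D2:**
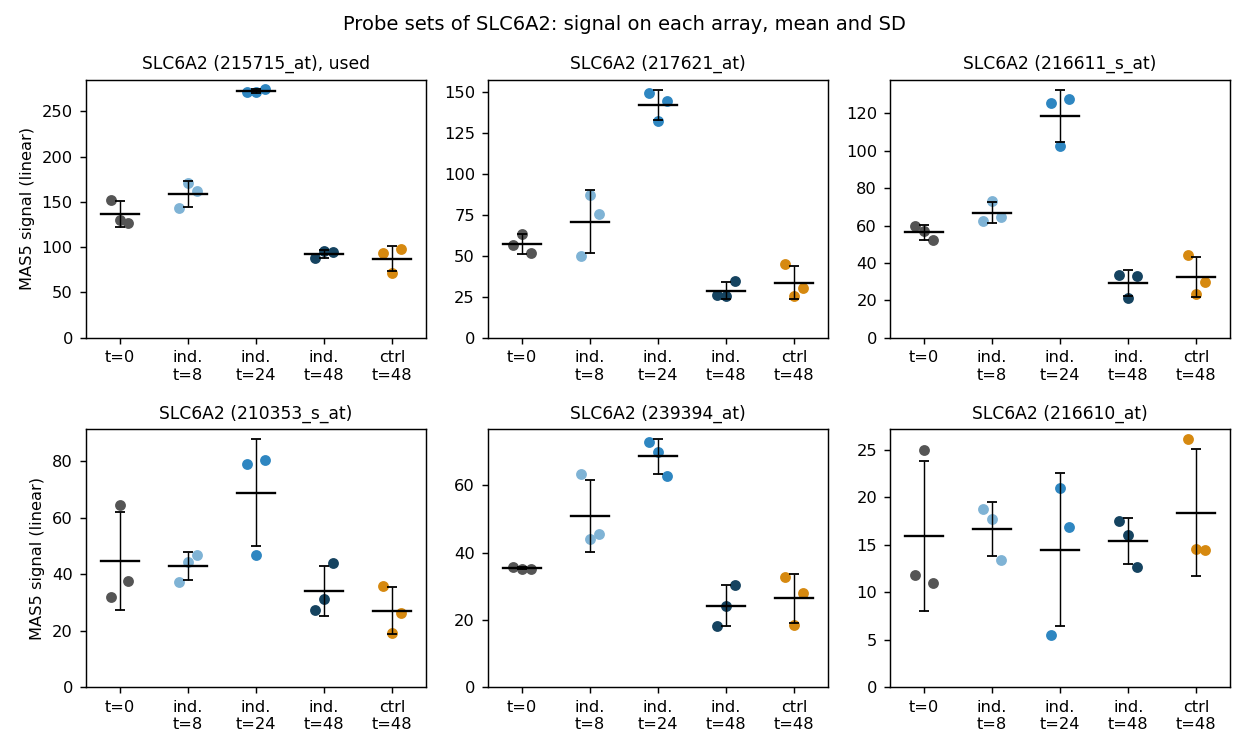
MAS5 signal (linear, y axis) of the 6 kept SLC6A2 probe sets on every array, by group (x axis as labelled), with the mean and SD of 3 arrays. The 5 brighter probe sets had their highest mean in induced cells at t24, and the dimmest did not.

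Of the vesicular transporters, which load granules, SLC18A1 was below the filter, with readings of 0.4 to 9.4 on the 15 arrays. SLC18A2 was dim. Its kept probe set read 25.2, 32.7 and 19.1 at t0, 34.2, 25.3 and 24.5 in induced cells at t8, 19.7, 18.2 and 20 at t24, 20.4, 17.3 and 19.1 at t48, and 21.9, 18.8 and 17.7 in control cells at t48. The 2 earlier groups held the higher readings, with t0 replicate 3 among the low ones. None of the 7 SLC18A2 differences passed limma's adjusted threshold, and 2 had an unadjusted p under 0.05. The largest was -0.43 from t8 to t24 (adjusted p = 0.111), and that between induced cells at t48 and t0 was -0.33 (adjusted p = 0.142). The latter passed without t0 replicate 3 (-0.49, adjusted p = 0.0374), and both passed after quantile normalization (0.0360 and 0.0465). At t48 SLC18A2 in induced and control cells differed by -0.03 (95% interval -0.36 to 0.30).

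MAOA, which oxidises noradrenaline and dopamine, passed in none of the 7 comparisons or the F-test (limma, adjusted p = 0.455). On its brightest probe set, 0 of the 7 had an unadjusted p under 0.05. Its brightest probe set read 227.5 to 278.8 at t0, 197.4 to 283.7 in induced cells at t8 and 200.3 to 262.2 at t24. At t48 it read 225.5, 240.2 and 224.3 in induced and 305.2, 254.3 and 268.5 in control cells, groups that did not overlap. Their difference was -0.25 (SE 0.14, 95% interval -0.55 to 0.04, adjusted p = 0.282). Of 2 further MAOA probe sets, 1 gave -0.27 and the other 0.00 for the same comparison. The former was higher in control cells at t48 than at t0 by 0.38 (limma, unadjusted p = 0.0102, adjusted p = 0.343).

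ADRA2A, the autoreceptor, was low in MSX1-induced cells at t8, closer to its starting level at t24 and low again at t48. It read 235.3, 223.6 and 236.5 at t0, 88.1, 97 and 95.9 in induced cells at t8, and 205, 172.7 and 189.8 at t24. Induced t48 arrays read 67.2, 75 and 97.7, and those of the control read 260.2, 191.9 and 159.5. The t8 and induced t48 arrays lay between 67.2 and 97.7 and all other arrays between 159.5 and 260.2, with no overlap. All t24 arrays lay below those of t0.

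ADRA2A fell by 1.26 from t0 to t8 (log2 fold change -1.26, SE 0.16, adjusted p = 0.000947), a 2.40-fold fall. From t8 to t24 it rose by 0.97 (SE 0.16, adjusted p = 0.00425). From t24 to t48 it fell by 1.20 (log2 fold change -1.20, adjusted p = 0.000739). At t48 it was lower in induced than in control cells by 1.28 (log2 fold change -1.28, SE 0.16, adjusted p = 0.000311), or 2.43-fold, and lower than at t0 (-1.49, adjusted p = 5.97e-05). Induced cells at t24 (-0.29, adjusted p = 0.277) and control cells at t48 (-0.21, 95% interval -0.56 to 0.14, adjusted p = 0.694) did not pass against t0. Each of the 5 ADRA2A differences that passed did so in all 17 alternatives, and the value against the control ranged from -1.44 to -1.10. ADRA2A rests on 1 probe set.

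Set against all genes, the catecholamine counts were as follows. Between induced and control cells at t48, 2 of 7 passed, DDC higher and ADRA2A lower, beside 8.55% of all genes. Against t0, 1 passed in induced cells at t8 (ADRA2A, lower, beside 2.1%) and 2 at t24 (SLC6A2 higher and GCH1 lower, 10.8%). At t48, 4 passed in induced cells (DDC and GCH1 higher, SLC6A2 and ADRA2A lower, 18.1%) and 1 in control cells (SLC6A2, lower, 0.846%). From t8 to t24, 2 passed (SLC6A2 and ADRA2A, higher, 6.27%), and from t24 to t48, 3 passed (GCH1 higher, SLC6A2 and ADRA2A lower, 3.99%). The 4 comparisons with t0 share its arrays.

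Median differences of the 7 catecholamine genes lay close to those of all genes where induced cells were set against the control (-0.03 and -0.01). They were lower in all comparisons with t0, at t8 (-0.10 and 0.01), at t24 (-0.29 and -0.01) and at t48. At t48 they were -0.15 and -0.02 in induced cells, and -0.13 and -0.005 in control cells. With 7 genes, the t24 median was the ADRA2A value, which did not pass. The genes that passed moved in both directions.

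**Figure D3:**
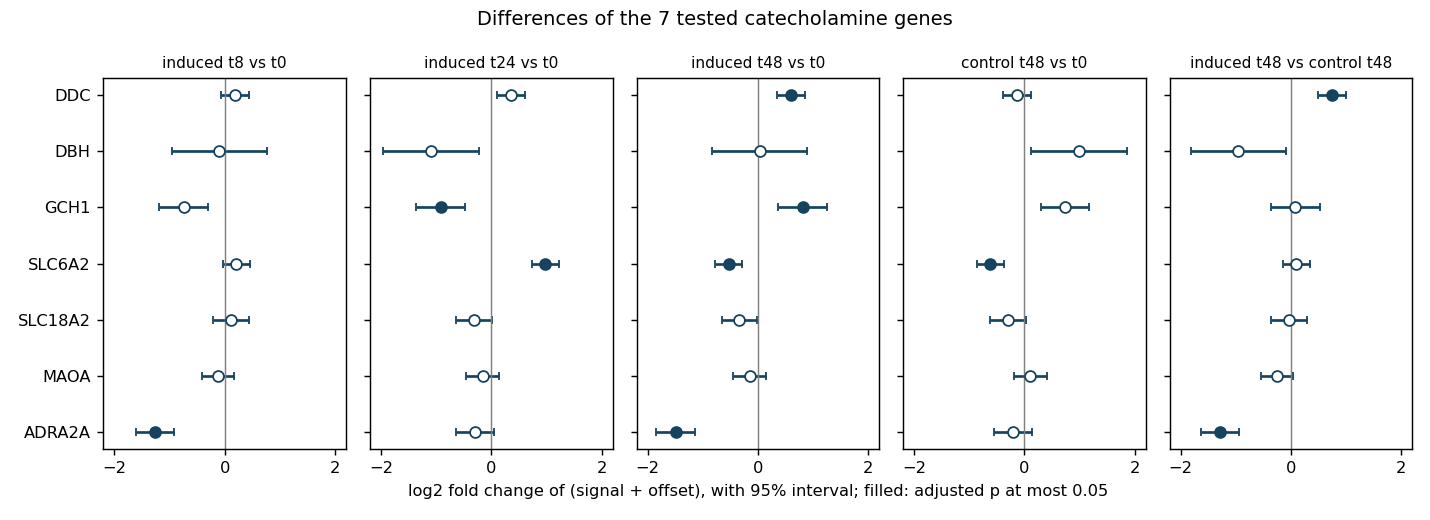
Log2 fold changes (x axis, signal plus offset) of the 7 tested catecholamine genes in 5 comparisons, with 95% intervals. Filled points passed limma's adjusted p of 0.05. Between induced and control cells at t48 only DDC (0.74) and ADRA2A (-1.28) are filled, and GCH1 and SLC6A2 lie near 0 there while they differ from t0 at t24.

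Correlations over the 15 arrays describe how the members ran side by side, with group differences included and no test. GCH1 and SLC6A2 ran opposite (Pearson r = -0.89), as did DBH and SLC6A2 (-0.71) and DDC and ADRA2A (-0.66). GCH1 and DBH ran together (0.59). Among all genes tested, those most like DDC were HEY1 (0.93), a Notch target repressor, and SRGAP3 (0.93), a GTPase-activating protein of the Slit-Robo pathway. HEY1 read 40.5 ± 2.64 in control and 871 ± 110.2 in induced cells at t48 (SD, n = 3). Those most like ADRA2A were SHROOM3 (0.91), an actin-binding protein, and EYA1 (0.90), a developmental cofactor and phosphatase. EYA1 read 984.6 ± 35.5 at t0, 571.6 ± 85.0 at t8, 735.6 ± 33.4 at t24 and 513.8 ± 23.3 at t48 in induced cells, and 914.6 ± 7.72 in the control (SD, n = 3). The genes most like SLC6A2 were CHST15 (0.95) and DOK4 (0.94), those most like GCH1 were RGS7 (0.93) and TRAP1 (0.93), and those most like DBH were HES6 (0.91) and MYB (0.91).

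Other genes of the pathway were mostly unmeasured or did not pass. Of 6 other metabolising enzymes 3 were measured (ALDH2, PNMT and SULT1A1), and ALDH2, which clears the aldehyde that monoamine oxidase makes, was lower in induced cells at t48 than at t0 (-0.39, adjusted p = 0.0451), a call that held in 7 of 17 alternatives. Of 6 other uptake transporters 2 were measured, of 8 other adrenergic receptors 1 (ADRA2C), and of 5 dopamine receptors 2. None of these 5 genes passed limma's adjusted threshold in any of the 7 comparisons, and 3 of their 35 values had an unadjusted p under 0.05.

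Genes that couple to or desensitise receptors such as alpha-2A changed in both directions. Of 11 measured genes of Gi coupling and receptor desensitisation, 4 passed between induced and control cells at t48, 3 of them higher and 1 lower, beside 8.55% of all genes, with a median of 0.00 beside -0.01. RGS4, which shortens Gi signalling by speeding GTP hydrolysis, read 599 ± 139.5 in control and 1114 ± 129 in induced cells (0.91, adjusted p = 0.00273), and its 3 probe sets all passed. Relative to t0 RGS4 was also higher in control cells (1.53, adjusted p = 0.000755). GRK3 and GRK5, kinases that phosphorylate activated receptors, were higher by 0.52 (adjusted p = 0.000289) and 0.91 (adjusted p = 0.0103), each on 1 probe set, while 2 further GRK3 probe sets and 1 further GRK5 probe set did not pass. Relative to t0 GRK3 was lower in control cells (-0.41, adjusted p = 0.00901) and differed by 0.11 in induced cells at t48 (adjusted p = 0.266). RGS2 was lower in induced cells than in the control (-0.53, adjusted p = 0.00665). The G protein genes of the list, GNAI1, GNAI2, GNAI3 and GNAO1, did not pass in that comparison (limma, adjusted p from 0.356 to 0.990).

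Transcription factors of the noradrenergic lineage were split as well, with 2 of 8 measured genes in a list of 11 higher and 2 lower at t48 against the control, beside 8.55% of all genes called, and a median of -0.09 beside -0.01. PHOX2A, a homeodomain activator of noradrenergic genes including DBH, read 1143 ± 113 at t0, 976 ± 61.7 in control and 1585 ± 58.7 in induced cells at t48 (0.70, adjusted p = 0.000203). Its difference from t0 at t8 was 0.38 (adjusted p = 0.0327), a call that held in 8 of 17 alternatives. HAND1, a basic helix-loop-helix factor, was higher (0.49, adjusted p = 0.00556), and TLX2, a homeodomain factor, lower (-0.43, adjusted p = 0.00419). The second lower gene was the LIM homeodomain gene ISL1 (-1.20, adjusted p = 0.00830), named after its value was seen. Relative to t0 TLX2 was also lower in control cells (-0.49, adjusted p = 0.00901), a call that held in 12 of 18 alternatives. INSM1, a zinc finger factor of neuroendocrine cells, passed against t0 (0.91, adjusted p = 0.00201) and not against the control (0.45, adjusted p = 0.102).

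Of 9 measured genes of granule release, 2 were higher and 0 lower at t48 in induced against control cells (limma, adjusted p at most 0.05, with 1 lower at an unadjusted p under 0.05), beside 8.55% of all genes, with a median of 0.12 beside -0.01. CADPS, which primes dense-core granules, read 29.6 ± 4.31 in control and 109 ± 12.1 in induced cells (1.72, adjusted p = 7.38e-06). Of 5 CADPS probe sets, 2 passed. CPLX1, a clamp and activator of vesicle fusion, was higher by 0.49 (adjusted p = 0.0321), a call that held in 7 of 17 alternatives. SYT1, a calcium sensor of vesicle fusion, was lower than t0 at t8 (-0.44, adjusted p = 0.0129), and STX1A, a membrane fusion protein, was lower than t0 at t48 in induced (-0.41, adjusted p = 0.0151) and in control cells (-0.52, adjusted p = 0.0348). The control value of STX1A held in 6 of 17 alternatives and the induced value in 14, and that of SYT1 in 12 of 18.

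The 2 measured genes of a list of 6 for cholinergic and serotonergic transmitters, CHAT and SLC18A3, lie in 1 locus and serve acetylcholine synthesis and its loading into vesicles. CHAT read 128.9, 130.7 and 192.1 at t0, 133, 119.8 and 132.4 in induced cells at t8, and 67.6, 79.4 and 102.3 at t24. At t48 CHAT read 79.1, 68.7 and 61.1 in induced and 100.5, 149.3 and 131.7 in control cells, groups that did not overlap. It was lower than the control by 0.81 (log2 fold change -0.81, adjusted p = 0.0179), a call that held in 11 of 17 alternatives, and lower than t0 by 1.04 (-1.04, adjusted p = 0.00249). SLC18A3 was lower than t0 in induced cells at t24 (-0.99, adjusted p = 0.0312, held in 10 of 17 alternatives) and t48 (-1.14, adjusted p = 0.0112), and differed from the control by -0.74 (adjusted p = 0.111).

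**Figure D4:**
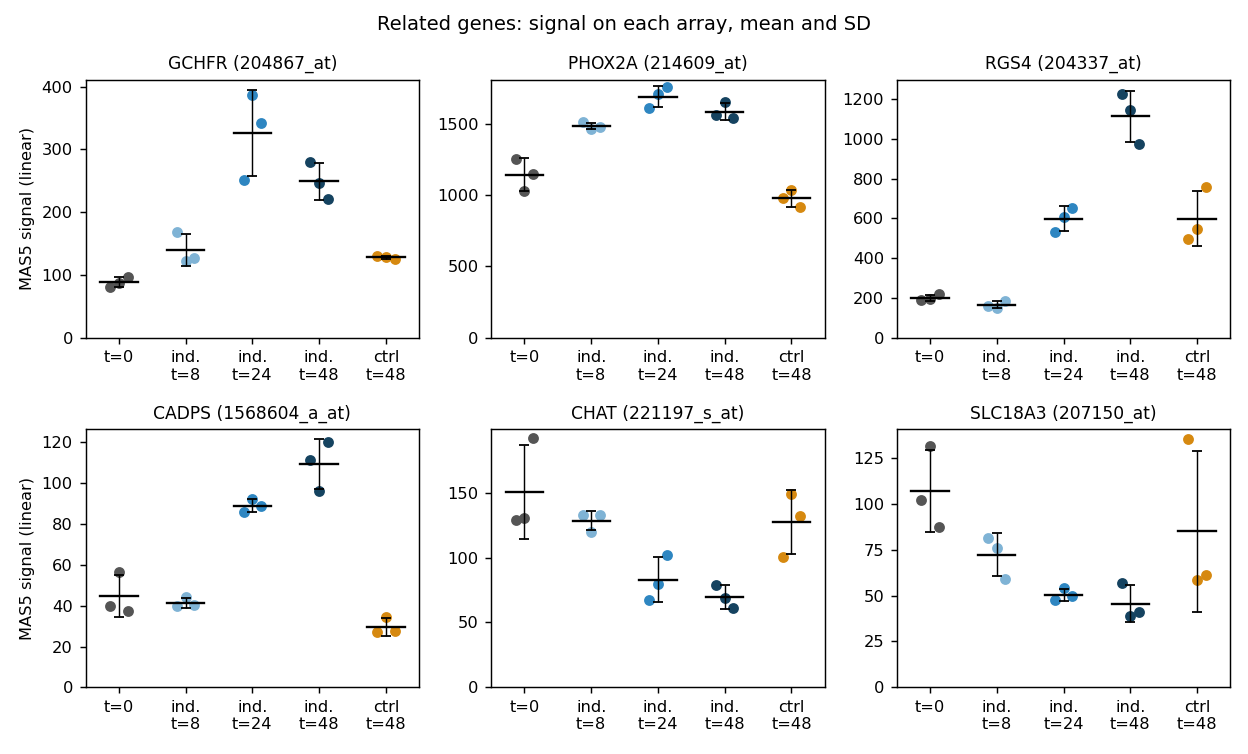
MAS5 signal (linear, y axis) of 6 genes related to the catecholamine genes on every array, by group (x axis as labelled), with the mean and SD of 3 arrays. GCHFR, PHOX2A, RGS4 and CADPS lie higher in induced than in control cells at t48, without overlap of the groups. CHAT and SLC18A3 lie lower, also without overlap, and SLC18A3 did not pass there (limma, adjusted p = 0.111).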

How the data were processed

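The authors deposited 1 linear intensity per probe set and array. The submitters' processing notes name MAS5 and GCOS for it, with settings not given in the sources used here. The deposited arrays had equal trimmed means (100.01, trimming 2% at each end), so a scaling to a common target can be read from the values. Probe sets with 1 gene symbol (41091 of 54675) were used, and 41037 were matched to RefSeq GRCh38.p14 through Entrez identifiers.

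An offset of 5.16 (the mean lower quartile of signal) was added before log2, and probe sets reaching the array median on at least 3 arrays were kept (30676). Each gene was represented by its brightest kept probe set (12880 genes). Group means were fitted over all 15 arrays with limma 3.58.1 (lmFit, eBayes) in R 4.3.3, checked on simulated data, and adjusted by Benjamini-Hochberg, with a threshold of 0.05. The number of arrays limits the precision. Figures were drawn with matplotlib 3.10.9.

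The catecholamine genes and the lists of related genes and markers were chosen with earlier results of these data known. From each list, genes past the threshold in any of 7 comparisons were named, up to 4 by lowest F-test p, and for each catecholamine gene past the F-test the 2 genes with the highest correlation over the 15 arrays. Alternatives covered the offset, scaling, filter, probe set, variance model, arrays in the fit, replicate block and arrays left out.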

Additional observations from a re-analysis of the deposited data

How the results depend on the processing

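Of the 15 catecholamine differences that passed, 282 alternative values were computed. In 252 the direction and call were as reported, in 25 the threshold was missed, and in 5 the sign turned. Those 5 came from the dimmest kept SLC6A2 probe set, with 0.18 for control t48 against t0, -0.24 for t24 against t8, -0.14 for t24 against t0, 0.16 for t48 against t24 and 0.017 for induced t48 against t0. Of 598 alternative values of the 34 differences that had not passed, 10 passed and 36 had the other sign, with sizes up to 0.35.

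The count of catecholamine genes lower in control cells at t48 than at t0 went from 1 to 0 with arrays centred on the median, without both weak-control arrays, with the mean of a gene's probe sets, without a filter, with only the compared groups and with the replicate number as a block. Leaving out 1 array at a time gave 0 to 1 for catecholamine genes there, 1 to 3 at t24 against t0 (1 without t0 replicate 3), 3 to 5 at t48 against t0, and 4 to 6 for the F-test. The counts for induced against control cells at t48 (2), t8 against t0 (1), t24 against t8 (2) and t48 against t24 (3) were the same in each of these. Analysis of each probe set by itself gives no such count.

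Among related genes and MSX1, second probe sets turned the sign of CADPS (-0.12 against the control and -0.12 against t0 at t48) and GRK5 (0.05 for t24 against t0 and -0.044 against the control). They did the same for MSX1 (-0.41 and -0.42 in these 2 comparisons) and for GRK3 (-0.091 against the control and -0.52 against t0 at t48, adjusted p = 0.0345 by limma). The cause was not tested.

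Replicate numbers were shared by all groups. Of 30 pairs of arrays with the same number in different groups, 3 had deviations correlated above 0.1 (median 0.01), against 8 of 60 pairs with different numbers, so the numbers were not treated as pairing. A replicate block changed 1 catecholamine call, SLC6A2 in control cells (adjusted p = 0.0529 by limma).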
